A study of Mus musculus with 192 samples.

Results

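Notch signalling was described here through 5 genes, of the 20764 in the count table. They are the receptors Notch1 and Notch2, the DNA-binding partner Rbpj, the target gene Hes1, and Dtx4, which encodes a Deltex-family ubiquitin ligase that acts on Notch receptors. They were chosen by name, and all 5 had a row of counts. The cells were 192 single bone marrow cells of C57BL/6 mice aged 8 to 16 weeks, with no treatment named. The labels call them mouse LSK cells, that is, cells without lineage markers that carry Sca-1 and cKit, the compartment of blood stem cells and early multipotent progenitors. Beads that bind cKit had enriched the marrow, and each cell was then index sorted, so that the sorter's antibody signals for CD135, CD150, Sca-1, cKit, CD127, CD16/32 and CD11b are known for it, in arbitrary units. The growth protocol also lists CD45.1, Cas9 and Dach1-GFP mice, but every cell is labelled C57BL/6. The labels name no animal, so all cells together were 1 biological sample. No test across animals was possible, and every value below describes these cells. All 95% intervals cover counting error only.

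Notch receptors are single-pass membrane proteins. A ligand on a neighbouring cell, of the Delta or Jagged type, exposes the receptor to an ADAM protease and then to gamma-secretase, which frees its intracellular domain. That domain enters the nucleus and joins RBPJ and a Mastermind protein to activate genes such as Hes1 and Nrarp. Without it, RBPJ binds co-repressors. In blood formation, Notch1 signalling in the thymus directs progenitors to the T cell lineage, while Notch2 is known for its role in marginal zone B cells. CD135 is the Flt3 receptor, which marks multipotent progenitors with lymphoid potential within LSK cells, CD150 marks stem cells, and CD127 is the interleukin-7 receptor alpha chain.

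In the GENCODE M21 annotation of GRCm38, Notch1 (ENSMUSG00000026923) lies at chr2:26457903-26516663 on the minus strand and Notch2 (ENSMUSG00000027878) at chr3:98013527-98150361 on the plus strand. Rbpj (ENSMUSG00000039191) lies at chr5:53466152-53657362, Hes1 (ENSMUSG00000022528) at chr16:30064384-30067796, both on the plus strand, and Dtx4 (ENSMUSG00000039982) at chr19:12466338-12501454 on the minus strand. All are protein-coding. The 3′ end of Notch1 overlaps 0610009E02Rik and Gm13568 on the opposite strand, which held 14 UMIs and 1 UMI in all, against 261 for Notch1. Whether counting used the strand is not given in the sources used here, so a few reads could have been assigned to the wrong partner.

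The promoters of both receptors and of Rbpj are shown because the receptors, similar in protein and in GC-rich start sites, differed in how their mRNA followed CD135, and because RBPJ is the factor through which both act. RefSeq promoter sequences (GRCm38.p6) matched 3 of the 5 genes by symbol, and Hes1 and Dtx4 are named only. Each stretch runs 5′ to 3′ on the gene's strand from base 250 before the RefSeq start towards it, and ends before any annotated exon. The Notch1 stretch is chr2:26503848-26504072 on the minus strand, and the Notch2 stretch is chr3:98013288-98013512 on the plus strand. That of Rbpj is chr5:53590096-53590213 on the plus strand. Capitals mark GC boxes (GGGCGG on either strand) and the core letters that RBPJ is known to bind (TGGGAA on either strand).
Notch1: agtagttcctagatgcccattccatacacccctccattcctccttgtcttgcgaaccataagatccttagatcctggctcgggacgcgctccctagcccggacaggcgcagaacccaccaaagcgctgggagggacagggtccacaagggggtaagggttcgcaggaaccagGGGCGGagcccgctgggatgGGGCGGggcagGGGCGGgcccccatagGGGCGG
Notch2: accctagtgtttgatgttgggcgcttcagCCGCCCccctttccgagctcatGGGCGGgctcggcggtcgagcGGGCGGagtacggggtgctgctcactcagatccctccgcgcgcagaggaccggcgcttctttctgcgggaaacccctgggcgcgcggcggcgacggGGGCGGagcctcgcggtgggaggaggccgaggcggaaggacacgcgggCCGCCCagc
Rbpj: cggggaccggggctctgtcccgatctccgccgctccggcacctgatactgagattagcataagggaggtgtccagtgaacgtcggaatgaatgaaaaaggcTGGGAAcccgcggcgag
The Notch1 stretch held 4 GC boxes and the Notch2 stretch 5, and 29.2% of 32851 mouse promoters hold at least 1 in a window of the same 225 bases. GC content was 64.9% and 72.9%, against a median of 52% over those promoters. Neither receptor's window had TGGGAA, which 19.7% of promoters hold, or an E-box (CANNTG), which 62.8% hold. The 118 bases of Rbpj held 1 TGGGAA, as do 11.1% of promoters in a window of that length. The matches are letters only. The Notch1 and Rbpj stretches lie inside the GENCODE gene spans given above, which include transcripts with earlier starts.

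Cells were kept when their gene UMIs (unique molecular identifiers, 1 per captured mRNA) reached 20% of the median of their library pool, which left 191 of 192. The kept cells had a median of 17715 gene UMIs, from 3927 to 49372. Both library pools of 96 cells used the same 96 cell indices. For each surface protein the 32 highest, 32 middle and 32 lowest cells of each pool formed the upper, middle and lower class. A level is given in CPM, the UMIs of a gene per 1000000 gene UMIs of the class. The mRNA of the proteins checked followed their signals, and no gene of CD16/32 or CD11b was checked. Between upper and lower classes the log2 ratio was 2.46 for Flt3, 3.46 for Slamf1 (14 UMIs against 1), 3.22 for Ly6a and 0.77 for Kit. The 14 cells with CD127 signal above 2000 held 48 UMIs of its gene Il7r, and the other 177 held 2. Kit mRNA was seen in 188 of the 191 cells and Ly6a, the gene of Sca-1, in 72.

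Over all kept cells, Notch1 had 261 UMIs in 100 cells (52.4%), with at most 11 in a cell. Notch2 had 181 UMIs in 97 cells (50.8%), and Rbpj 251 in 123 cells (64.4%). Dtx4 was sparse, with 38 UMIs in 28 cells (14.7%), and Hes1 had 10 UMIs in 4 cells. No cell held all 5 genes, 4 cells held 4 of them, 84 held 2 and 17 held none. The cells with none were shallower, with a median of 14666 gene UMIs, against 19741 in the 41 cells with 3 members.

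Notch1 mRNA was higher with rising CD135 signal. In the lower CD135 class it stood at 25.1 CPM (17.1 to 35.4; 32 UMIs in 63 cells), in the middle class at 44.03 CPM (33.1 to 57.5; 54 UMIs in 64 cells) and in the upper class at 145.7 CPM (125 to 169; 64 cells). Single cells ranged from 0 to 158 CPM in the lower class with a median of 0, from 0 to 386 in the middle class with a median of 0, and from 0 to 784 in the upper class with a median of 117. The classes overlapped, since 13 of the 64 upper cells had no Notch1 UMI, but no lower-class cell exceeded 3 UMIs. The upper class was 5.82-fold above the lower (3.97 to 8.76), a log2 ratio of 2.54 (1.99 to 3.13). In pool 1 this log2 ratio was 2.52 and in pool 2 it was 2.53. Of 10266 genes with at least 20 UMIs over these 2 classes, 10.1% differed by at least 2-fold in either direction, and Notch1 was the only 1 of the 5 genes to do so.

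**Figure D1:**
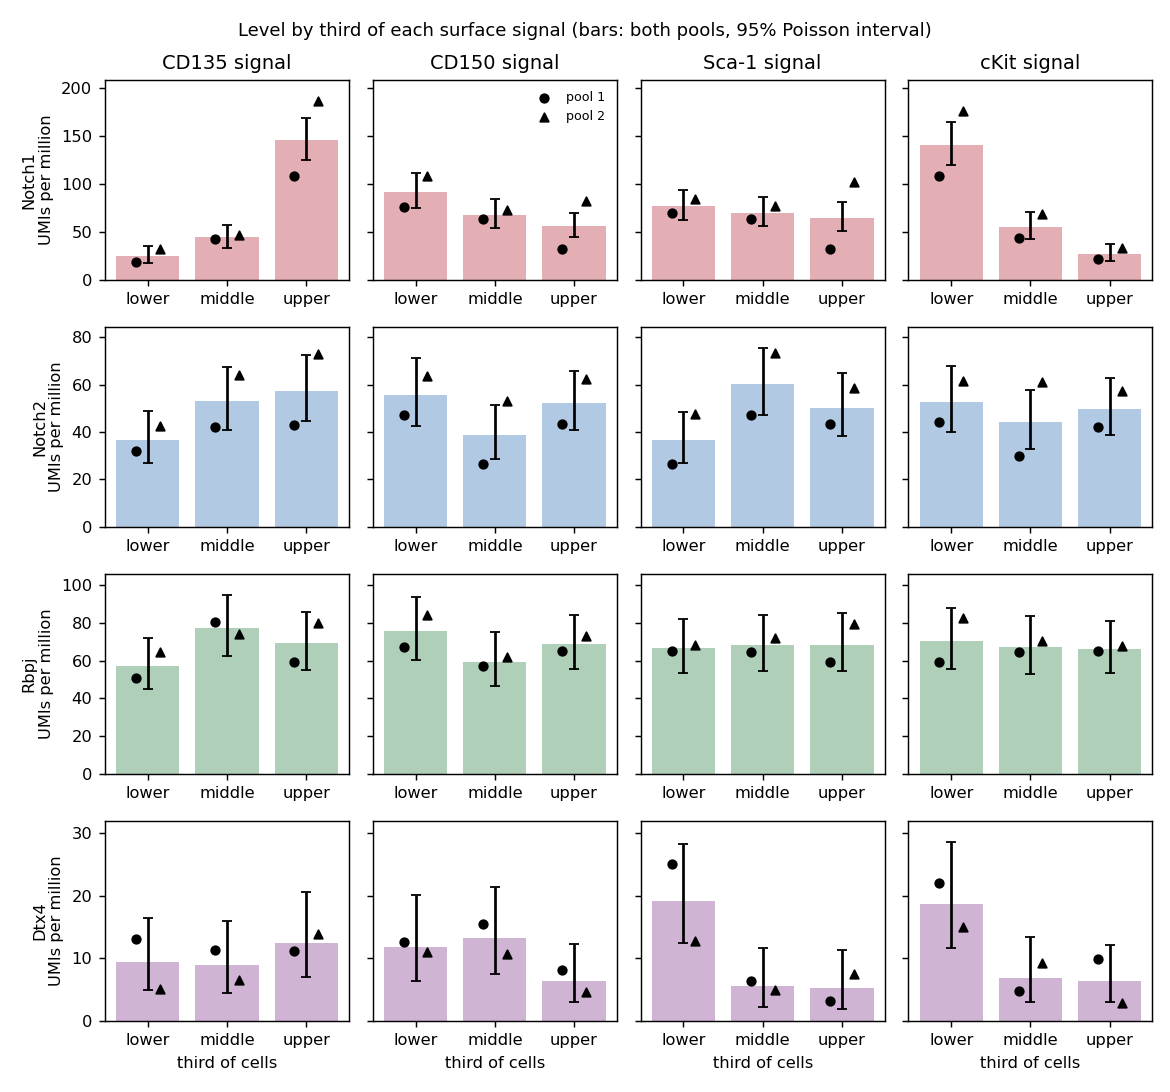
Levels of Notch1, Notch2, Rbpj and Dtx4 (rows, in CPM) in the lower, middle and upper class of cells by each surface signal (columns). Bars are both pools together with 95% Poisson intervals, circles pool 1 and triangles pool 2. Notch1 goes from 25.1 to 145.7 CPM across CD135 and from 141 to 27.1 across cKit, while Rbpj stays between 57.1 and 77.5 CPM in all 12 classes.

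More upper cells held Notch1 at all. It was seen in 38.1% of lower, 39.1% of middle and 79.7% of upper cells. With each cell thinned to 12147 UMIs, which left out 4, 7 and 8 cells of these classes, the shares were 28.8%, 35.1% and 75%. Median depths were alike, at 18031, 17426 and 17227 gene UMIs. No sorted cell type here is known to lack Notch1, so no background share can be set beside these. Cut finer, into 6 classes of 16 cells per pool, Notch1 stood at 23.96, 25.97, 36.4, 52.2, 125 and 165.6 CPM from the lowest to the highest CD135. The largest step lay between the fourth class (35.5 to 74.1) and the fifth (98.3 to 157.1), at median signals of 862 and 1360. Their intervals, of counting error only, did not overlap. This border is also that of the middle and upper class, so the step is not a separate observation.

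**Figure D2:**
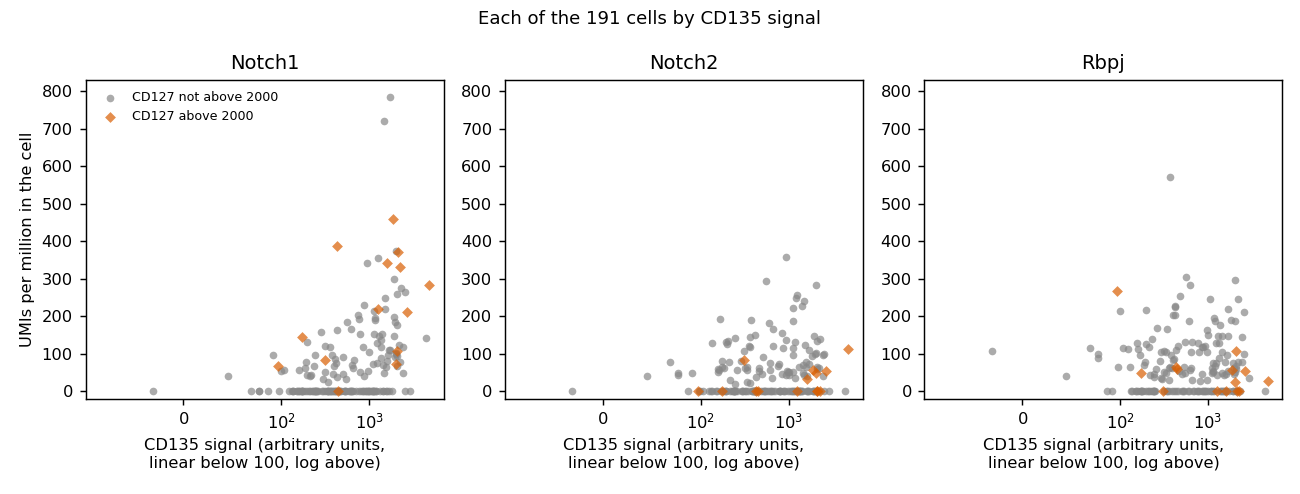
Each point is 1 of the 191 cells, with its CD135 signal (arbitrary units) on the horizontal axis and the CPM of Notch1, Notch2 or Rbpj in that cell on the vertical axis. Orange diamonds are the 14 cells with CD127 signal above 2000. Cells above 400 CPM of Notch1 lie at the right, in the upper CD135 class, and Notch2 and Rbpj show no such lean.

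Some other marker lists moved across CD135 and some did not. The summed level of the list of lineage-positive T cell genes went from 21.9 to 40.8 to 93.2 CPM, and was seen in 15, 28 and 43 cells. Of its 7 genes 2 held UMIs: Lck, a T cell kinase, seen in 81 cells, and Cd4 with 12 in 9 cells. Cd3d, Cd3e, Cd3g, Cd8a and Trac were not analysed here. Summed erythroid genes ran the other way, from 122 to 35.1 to 11.7 CPM, as did mast cell genes (174, 63.6 and 15.8 CPM) and granulocyte genes (494, 240 and 129 CPM). Single lower-class cells weighed on these sums, with up to 2373, 2874 and 7838 CPM. Erythroid genes were seen in 23, 19 and 12 cells and mast cell genes in 32, 28 and 13. Granulocyte genes were seen in 40, 49 and 37 cells, with single-cell medians of 76.4, 121.8 and 67.4 CPM, so typical cells showed no such fall. Megakaryocyte genes went from 73.6 to 36.7 to 9.99 CPM, in 38, 26 and 11 cells. Natural killer cell genes (71.2, 66.9 and 74.1 CPM) and monocyte and macrophage genes (121, 130 and 125 CPM) changed little. The part of these lists in the Notch1 difference was not tested.

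CD150, which marks stem cells, went with less Notch1. The lower, middle and upper CD150 classes held 91.9 CPM (74.8 to 112), 67.8 CPM (53.9 to 84.1) and 55.9 CPM (44.2 to 69.8). The log2 ratio of upper to lower was -0.72 (-1.16 to -0.28). It was -1.23 in pool 1 and -0.39 in pool 2, so the pools differed in size. None of the 5 genes passed 2-fold by CD150 with at least 20 UMIs, where 7.31% of 10323 genes did. In cells of the upper CD135 class alone the ratio was 0.20 (-0.35 to 0.74), with 51 UMIs in 15 cells against 68 in 26. In the lower CD135 class it was -0.75 (-1.97 to 0.52), from 15 UMIs against 11, and in the middle class -1.11 (-2.26 to -0.03), from 12 against 22. The CD135 difference was present in each CD150 class, at 2.06, 2.52 and 3.01 from the lower to the upper.

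The rank gates that join both signals separated Notch1 in the same way. CD150-high CD135-low cells, those among the 24 highest of a pool for CD150 with CD135 under the pool's median, had 24.1 CPM (14.5 to 37.6; 33 cells). CD150-not-high CD135-low cells had 32.1 CPM (22.5 to 44.4; 62 cells), an interval that overlaps the first. CD135-high CD150-not-high cells had 155.1 CPM (128.06 to 186; 40 cells), above both.

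By cKit signal Notch1 ran opposite to CD135. It stood at 141 CPM (120 to 164.4) in the lower cKit class, 55.2 (42.6 to 70.4) in the middle and 27.1 (19.1 to 37.1) in the upper. Single-cell medians were 106, 21.1 and 0 CPM, with highest values of 784, 373 and 202. The log2 ratio of upper to lower was -2.38 (-2.93 to -1.86), with -2.36 in pool 1 and -2.41 in pool 2. Notch1 and Dtx4 both passed 2-fold here, where 7.84% of 10308 genes did in either direction. Depth also moved with cKit, from a median of 16051 gene UMIs in the lower class to 20480.5 in the upper, and Notch1 was seen in 69.8%, 50% and 37.5% of cells, or in 65.4%, 46.6% and 29.0% after thinning.

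CD135 and cKit classes overlapped heavily, which limits what either can say of the other. The lower cKit class held 43 of the 64 upper CD135 cells and the upper cKit class held 2. Within the middle CD135 class, Notch1 had 20 UMIs in 26 upper-cKit cells and 19 in 12 lower-cKit cells, a log2 ratio of -1.50 (-2.48 to -0.52). Within the lower CD135 class the sign turned, with 18 UMIs in 36 cells against 1 in 8, a log2 ratio of 1.66 with an interval from -1.01 to 7.04. In reverse, within the middle cKit class Notch1 was higher in upper than lower CD135 cells by 1.51 (0.56 to 2.54; 37 UMIs against 13, 19 cells each). Within the lower cKit class it was 138 UMIs in 43 cells against 1 in 8, a log2 ratio of 4.57 (2.07 to 9.88).

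Sca-1 classes differed little in Notch1 over both pools, at 76.5, 69.8 and 64.2 CPM from lower to upper. Their log2 ratio was -0.25 (-0.71 to 0.20), but -1.11 in pool 1 and 0.28 in pool 2, so no direction held in both pools. Among upper-CD135 cells, the 23 with upper Sca-1 had 113 CPM and the 16 with lower Sca-1 had 228 CPM, a log2 ratio of -1.01 (-1.56 to -0.47).

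Notch1 was higher in the 14 cells with CD127 signal above 2000 than in the rest. They had 211 CPM (162 to 269; 64 UMIs), and the other 177 had 57.9 CPM (50.1 to 66.6; 197 UMIs). Single CD127-high cells ran from 0 to 460 CPM with a median of 214, and 13 of the 14 held a Notch1 UMI, against 87 of 177 of the rest. The log2 ratio was 1.86 (1.43 to 2.28), with 1.73 in pool 1 (5 cells) and 1.85 in pool 2 (9 cells). In this comparison 19% of 11250 genes differed by at least 2-fold, and Notch1 and Dtx4 were the 2 of 5 that did with at least 20 UMIs. Of the 14 cells, 9 lay in the upper CD135 class. Among upper-CD135 cells alone the ratio was 1.07, where CD127-high cells had 257 CPM (192 to 336; 9 cells) and the others 123 CPM (102 to 146.4; 55 cells). The 5 CD127-high cells outside that class had 113 CPM (56.4 to 202; 11 UMIs). Leaving CD127-high cells out kept the CD135 ratio of Notch1 at 2.48.

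**Figure D3:**
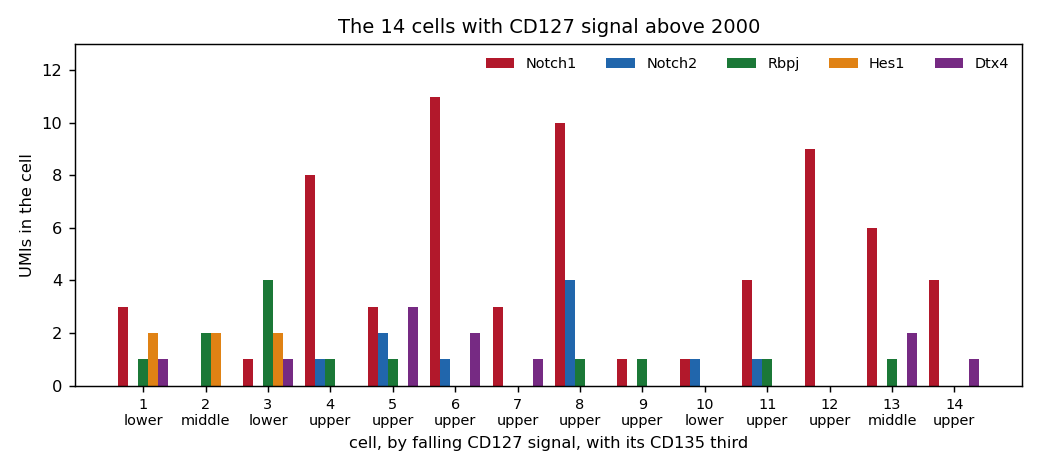
UMIs of the 5 genes in each of the 14 cells with CD127 signal above 2000, ordered by falling CD127 signal, with the CD135 class of each cell under its number. Hes1 appears in the first 3 cells alone, which are the 3 with the strongest CD127 signal, and Notch1 is highest in cells 6, 8 and 12, all in the upper CD135 class.

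Dach1, the transcription cofactor in the series title, had 251 UMIs in the lower and 42 in the upper CD135 class. Among upper-CD135 cells, the 20 with a Dach1 UMI had Notch1 at 106 CPM (76.4 to 142) and the 44 without at 166.2 CPM (139 to 197), and these intervals overlap slightly. Cells with a Dach1 UMI were also deeper, at a median of 19646.5 against 16711.5 gene UMIs.

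Notch2, the other receptor, varied less across CD135. Its levels in the lower, middle and upper CD135 class were 36.8 CPM (27.04 to 48.9), 53.005 CPM (40.9 to 67.6) and 57.4 CPM (44.7 to 72.7), from 47, 65 and 69 UMIs. Single cells reached 192, 357 and 282 CPM in these classes, with medians of 0, 10.7 and 46.2. The log2 ratio of upper to lower was 0.64 (0.09 to 1.21), with 0.43 in pool 1 and 0.78 in pool 2. The intervals of Notch1 and Notch2 for this ratio did not overlap. After thinning, Notch2 was seen in 27.1%, 42.1% and 46.4% of cells.

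By CD150 the Notch2 levels were 55.5, 38.8 and 52.3 CPM, and the log2 ratio of the outer classes was -0.09 (-0.60 to 0.43). By cKit they were 52.5, 44.2 and 49.8 CPM, with a log2 ratio of -0.08 (-0.60 to 0.45), where Notch1 had -2.38. By Sca-1 they were 36.7, 60.2 and 50.3 CPM, with 0.45 (-0.12 to 1.04). CD127-high cells had 32.9 CPM (10 UMIs in 6 of 14 cells) and the rest 50.3 CPM, a log2 ratio of -0.61 (-1.70 to 0.30). In the joint gates Notch2 was 59.6 CPM (43.8 to 79.3) in CD150-high CD135-low cells, 33.9 (23.98 to 46.5) in CD150-not-high CD135-low cells and 51.3 (36.3 to 70.3) in CD135-high CD150-not-high cells. Its lowest level was thus in the gate between the CD150-high and the CD135-high cells, with intervals that overlap those of both neighbours.

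**Figure D4:**
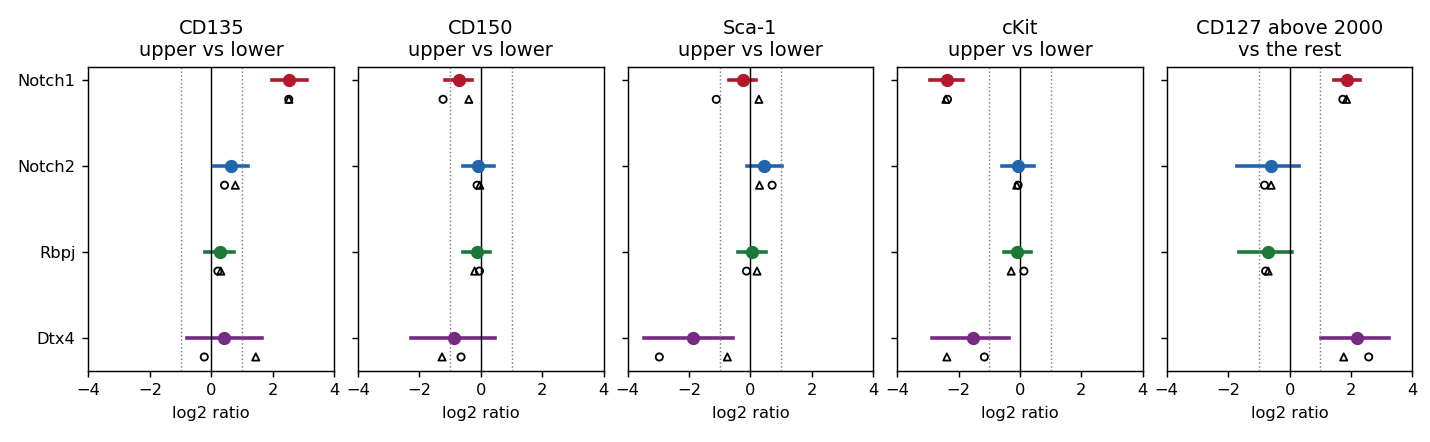
Log2 ratio of CPM for Notch1, Notch2, Rbpj and Dtx4 in 5 comparisons, as filled points with 95% counting intervals. Open circles and triangles below each are pool 1 and pool 2, and dotted lines mark 2-fold. Notch1 lies at 2.54 for CD135, -2.38 for cKit and 1.86 for CD127, Dtx4 past 2-fold for Sca-1, cKit and CD127, and the intervals of Rbpj include 0 throughout.

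Rbpj, the DNA-binding partner of the receptors, had intervals that include 0 in all 5 comparisons. Across CD135 it stood at 57.1 CPM (44.8 to 71.9), 77.5 CPM (62.7 to 94.7) and 69.1 CPM (55.0 to 85.7), from 73, 95 and 83 UMIs, with single-cell medians of 42.2, 59.7 and 54.0 CPM. The log2 ratio of the outer classes was 0.27 (-0.20 to 0.75), with 0.22 and 0.31 in the pools. By CD150 it was -0.13 (-0.57 to 0.31), by Sca-1 0.04 (-0.42 to 0.50) and by cKit -0.09 (-0.54 to 0.36). These intervals leave room for differences of up to 1.68-fold by CD135. CD127-high cells had 42.8 CPM from 13 UMIs and the rest 69.97 CPM, a log2 ratio of -0.71 (-1.64 to 0.09). Some values within single classes of another signal lay farther from 0, and they are picked from several looked at. Among upper-CD135 cells the 9 CD127-high cells had 24.2 CPM (7.87 to 56.6; 5 UMIs) and the other 55 had 78.4 CPM (61.97 to 97.8), a log2 ratio of -1.69. Among lower-CD135 cells, the 12 with upper Sca-1 had 6 UMIs and the 34 with lower Sca-1 had 52, a log2 ratio of -1.34 (-2.85 to -0.12).

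Dtx4 was too sparse for a direction by CD135. It had 12, 11 and 15 UMIs in the lower, middle and upper class (9.39, 8.97 and 12.49 CPM), a log2 ratio of 0.41 (-0.78 to 1.64) that was -0.23 in pool 1 and 1.45 in pool 2. By Sca-1 it had 25 UMIs in 17 lower cells, 7 in 7 middle cells and 6 in 4 upper cells. The log2 ratio of upper to lower was -1.88 (-3.45 to -0.56), with -2.97 in pool 1 and -0.75 in pool 2. Here Dtx4 was the only 1 of the 5 past 2-fold with at least 20 UMIs, as were 7.72% of 10234 genes. By cKit it had 21, 8 and 9 UMIs, a log2 ratio of -1.55 (-2.86 to -0.36), with -1.16 in pool 1 and -2.38 in pool 2. With thinned cells this was -0.62, and with the mean of CPM over cells -0.89, both short of 2-fold. CD150 gave -0.87 (-2.28 to 0.46).

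Dtx4 was also seen more often in CD127-high cells, in 7 of 14 (50%, 23.04 to 76.96) against 21 of 177 (11.9%, 7.496 to 17.6). Its 11 UMIs there came to 36.2 CPM, against 7.94 CPM in the rest, a log2 ratio of 2.19 (1.03 to 3.25) with 2.58 in pool 1 and 1.76 in pool 2, and 1.37 with thinned cells. Of the 14 CD127-high cells, 10 were in the lower Sca-1 class and 12 in the lower cKit class, so these 3 comparisons of Dtx4 share cells.

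Hes1, the target gene, was seen in 4 of the 191 cells, with 4, 2, 2 and 2 UMIs. The lower CD135 class held 8 UMIs in 3 cells and the middle 2 in 1 cell. In the upper class 0 of 64 cells had one, which allows a share of cells with a UMI of up to 4.69% (3 counts of 64 cells; the upper bound of the exact interval is 5.60%). Against a floor of 3 UMIs over the class, the lower CD135 class stood 2.51-fold above the upper, or 1.61-fold with the counting error of the 8 UMIs. Both values treat UMIs of 1 cell as separate counts, so neither sets a least difference for Hes1. The 8 UMIs are also under the minimum used to call a gene past 2-fold. By cells it was 3 of 63 lower against 0 of 64 upper cells, too few to set a least difference. All 8 UMIs came from 3 cells of pool 2, 4 of them from 1 cell. Pool 1 had no Hes1 UMI in either class, so any difference rests on pool 2 alone. All 4 cells were in the lower Sca-1 class, where they were 4 of 63, and none of the 64 upper cells had a UMI. In pool 1 this was 2 UMIs, from 1 cell, against 0.

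Of those cells, 3 had the 3 strongest CD127 signals of all, 30309, 29635 and 17237, and none was in the upper CD135 class. CD127-high cells thus held 6 Hes1 UMIs in 3 of 14 cells and the rest 4 UMIs in 1 of 177, a ratio of 16.8-fold (3.98 to 80.96). The ratio rests on 10 UMIs in all, under the minimum of 20. Its interval treats UMIs of 1 cell as separate counts, although each of the 4 cells held 2 or 4. In pool 1 the UMIs were 2 against 0 and in pool 2 they were 4 against 4, a log2 ratio of 3.22. The cells with CD127 at 30309 and 17237 also held Gata3 (4 and 10 UMIs) and Tcf7 (3 and 9 UMIs), transcription factors of the early T lineage, with 1 Dtx4 UMI each and 3 and 1 Notch1 UMIs. The cell at 29635 held none of Notch1, Dtx4, Gata3 or Tcf7. The fourth Hes1 cell differed from these: it was in the upper CD150 and upper cKit classes with a CD127 signal of 743, and had 10 Dach1 UMIs and 15 of Myc. All 4 held Rbpj and none held Notch2. B cell genes summed to 257 CPM in CD127-high cells and 16.5 CPM in the rest, but 74 of the 78 UMIs in CD127-high cells came from 1 cell, the Hes1 cell at 29635, at 2181 CPM. Without that cell the list came to 14.8 CPM in 13 CD127-high cells. The T cell list came to 142 against 43.2 CPM, but Lck was the only 1 of its 7 genes with UMIs in CD127-high cells. The part of both lists in the Hes1 and Dtx4 values was not tested.

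Notch1 and Notch2 were seen together in 53 cells: Notch2 was in 53% of the cells with Notch1 and in 48.4% of those without. After thinning these shares were 43.0% and 34.4%. Rbpj was in 65% of cells with Notch1 and 63.7% of those without. Dtx4 was in 17 of the 100 cells with Notch1 and 11 of the 91 without.

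The wider Notch pathway was read from a list of 72 genes, of which 64 were counted and 50 had at least 20 UMIs. Of the other receptors, Notch3 had 4 UMIs and Notch4 had 4. Ligand genes were near nothing: Dll1 had 3 UMIs, Dll4 1, Jag2 5 and Dlk1 7, while Dll3 and Jag1 had no row under these symbols in the count table. Among targets, Hes6 was seen in 99 cells, and Hes5 had 16 UMIs and Nrarp 11. Hey1, Hey2 and Heyl had no row either.

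By CD135, 49 listed genes had at least 20 UMIs in the outer classes, 25 of them above 0 and 24 below, where 44.5% of all genes tested were above 0, with a median log2 ratio of 0.01 against -0.05 over all genes tested. Of all genes tested, 4.31% were past 2-fold upward and 5.83% downward. Of the list, 2 were past it upward, Notch1 and the coactivator Maml3, a Mastermind protein, at 140 CPM in the upper and 55.6 in the lower class (log2 1.33, 0.92 to 1.75). Downward there were 3. Psen2, a catalytic subunit of gamma-secretase, had 22.5 against 46.97 CPM (-1.06, -1.78 to -0.39), with -0.35 in pool 1 and -1.67 in pool 2. Gata3 had 9 UMIs against 43 (-2.17, -3.39 to -1.11), and Bcl11b, a T lineage factor, 1 against 31, but 25 of the 34 Bcl11b UMIs in all cells came from 1 cell. By role, the genes above 0 were 2 of 2 receptors, 2 of 3 for ligand endocytosis, 2 of 4 for receptor glycosylation, 3 of 9 proteases and gamma-secretase subunits, 4 of 10 for receptor trafficking and turnover, 6 of 7 of the nuclear complex, 6 of 10 RBPJ co-repressors and 0 of 4 targets. Of the Fringe glycosyltransferases, which change how Notch receptors respond to ligands, Lfng stood at 0.95 (0.17 to 1.77) and Mfng at 0.78 (0.30 to 1.27). Neither passed 2-fold, and the value of Rfng, with 29 UMIs in all cells, is not given. With a minimum of 10 UMIs, 2 of the 5 receptor glycosylation genes were above 0 and 3 below, with a median of -0.15.

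**Figure D5:**
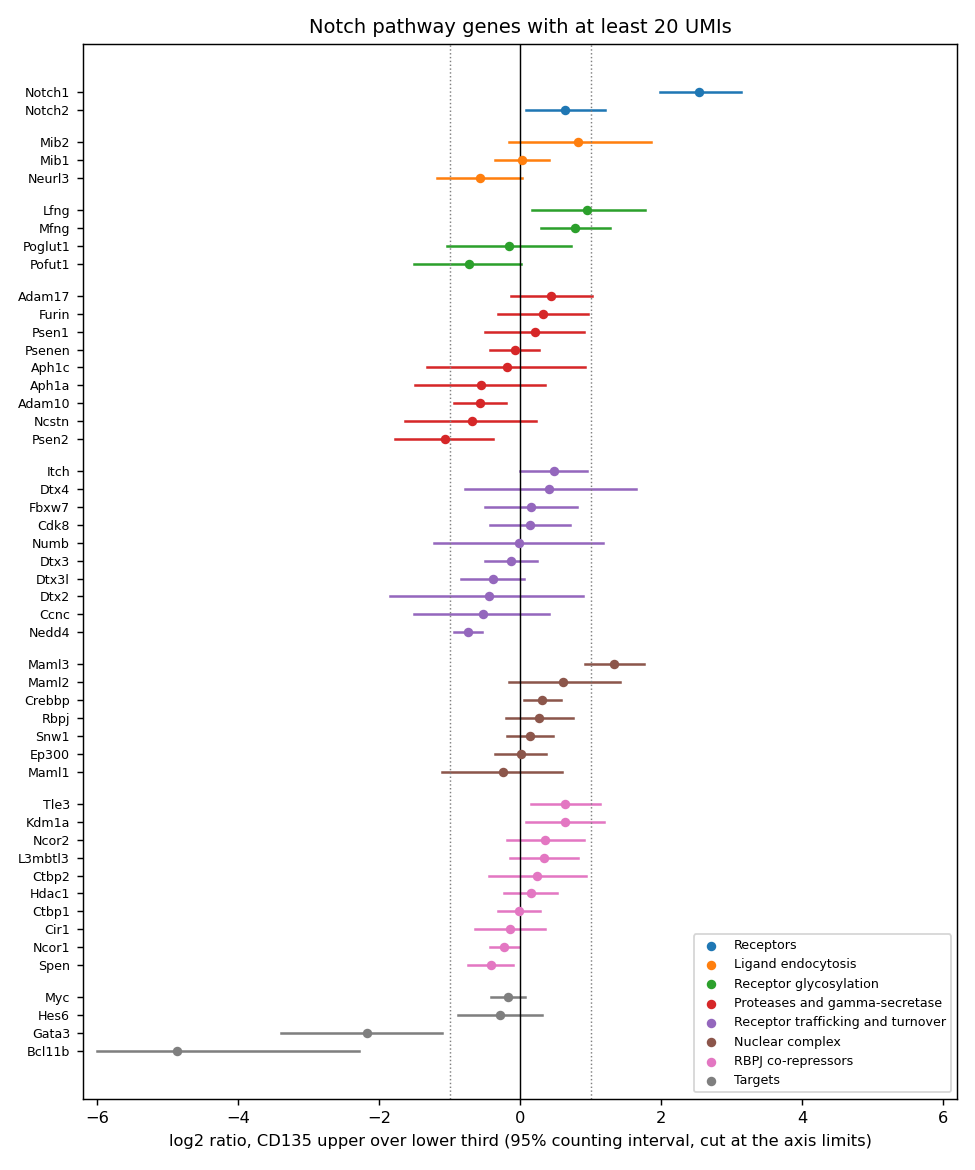
Log2 ratio of CPM between the upper and lower CD135 class for the 49 listed Notch pathway genes with at least 20 UMIs in those classes, coloured by role, with 95% counting intervals. Dotted lines mark 2-fold. Notch1 at 2.54 is the highest point, and Gata3 and Bcl11b are the lowest.

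By the other signals the list moved in both directions. For CD150, 14 of 48 genes were above 0 and 34 below (50.2% of all genes were above), with a median of -0.16 against 0.00 over all genes. Over all genes 4.63% were past 2-fold upward and 2.68% downward. In the list, past 2-fold with the same sign in both pools, Poglut1, an O-glucosyltransferase that modifies Notch, was lower with CD150 at -1.31 (-2.16 to -0.49), Numb, an inhibitor of Notch, stood at -1.02 (-2.32 to 0.21), and Rfng, the other Fringe, at 1.07 (-0.36 to 2.71). For Sca-1, 28 of 50 were above 0 and 22 below (52.99% of all genes were above), with a median of 0.15 against 0.03, and the shares over all genes were 4.97% upward and 2.75% downward. Mfng (1.02, 0.54 to 1.52), the ligand-endocytosis ligase Mib2 (1.18, 0.21 to 2.22) and Maml2 (1.05, 0.15 to 1.99) passed 2-fold upward, and Dtx4 and Bcl11b downward, Bcl11b with 0 UMIs against 30, of which 25 came from 1 cell. For cKit, 22 of 49 were above 0 and 27 below (54.9% of all genes were above), with a median of -0.13 against 0.06, and the shares over all genes were 4.41% and 3.42%. The co-repressor Tle3 was lower in the upper cKit class at -1.04 (-1.59 to -0.49), Mib2 stood at -1.27 (-2.36 to -0.24), with -0.56 in pool 1 and -2.19 in pool 2, and Ncstn, a gamma-secretase subunit, was higher at 1.05 (0.04 to 2.14).

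In CD127-high cells, 24 of 50 listed genes were above 0 and 26 below (45.4% of all genes were above), with a median of -0.05 against -0.08. Past 2-fold were 8 upward and 7 downward, where 5.15% and 13.8% of all genes were. Lfng had 18 UMIs against 77 in the rest, or 59.3 against 22.6 CPM (1.39, 0.56 to 2.14). Gata3 had 16 against 48 UMIs, or 52.7 against 14.1 CPM (1.90, 0.98 to 2.74), of which 14 came from the 2 Hes1 cells named above. Without the 1 cell with 10 of them the ratio was 0.56 (-0.96 to 1.79). The 25 Bcl11b UMIs were those of 1 cell, the Hes1 cell with CD127 at 30309, and the other 13 CD127-high cells had none. The same cell gave the 25 Bcl11b UMIs in the CD135 and Sca-1 comparisons, so these are not separate observations. Neurl3, a Neuralized-type ligase, was lower, with 4 UMIs against 181 (-2.01, -3.91 to -0.63), but -1.12 in pool 2 alone.

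Genes with a class pattern most like that of Notch1 were sought by correlation of log2(CPM + 10) over 24 class values, the 3 classes of 4 surface signals in each of 2 pools. These values share cells and depth, so the correlations are a description. Among 2621 genes with at least 200 UMIs the closest were Ncf1 (r = 0.96), a subunit of the phagocyte NADPH oxidase, Tmsb10 (0.94), an actin-binding thymosin, and Ighm (0.92), the immunoglobulin mu heavy chain. Their log2 ratios by CD135 were 2.98, 1.04 and 4.34. For Rbpj the closest were Hspbp1 (0.78), Lpp (0.78) and Rac2 (0.77), and Notch1 and Rbpj had r = 0.51. Notch2 had too few UMIs for this rule. With genes from 100 UMIs allowed its closest were Cbl, Actg1 and Fam69b, at 0.90, 0.88 and 0.85. The closest to Notch1 was then Arpp21 (0.97), ahead of Ncf1.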

How the data were processed

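Poly(A) RNA of 192 sorted cells was made into libraries with an adapted CEL-seq2 protocol, with cell indices of 8 bases, a UMI of 6 random bases and ERCC spike-ins, per the labels' protocols. The authors deposited whole-number counts of UMIs, 1 column per cell, which had not been scaled. Which aligner, counter and UMI collapsing were used is not stated in the labels. The submitters' processing notes name GRCh38, a human build, while gene identifiers are those of mouse, so positions and symbols were taken from GENCODE M21 (GRCm38) by identifier.

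Each class's counts of a gene were added up and set over its gene UMIs, without the 71 spike-ins. Sums have exact Poisson intervals, shares of cells exact Clopper-Pearson intervals, and ratios exact conditional binomial intervals, at 95%. A gene with no UMI on one side was set at a floor of 3 UMIs. For shares, 172 cells were thinned to 12147 UMIs, a depth set at the 10th percentile. Doublets were not called, since cells were sorted singly. The ratio and interval code was checked on simulated counts with known fold changes. These were Poisson draws of class sums without single cells, so the check says nothing of spread between cells. With 1 biological sample there was no test and no p-value. Python 3.11.15 with numpy 2.4.6, pandas 2.3.3 and scipy 1.17.1 was used.

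The 5 genes are named by choice. Listed genes are named when past 2-fold with the same sign in both pools, up to 6 per comparison, and others by their role or likeness. The values within classes of another signal, in single CD127-high cells, without the cell with most UMIs of a list and in 6 CD135 classes were chosen after values were seen. The members and lists were chosen with earlier results of these data known. Alternatives were classes of 48 and of 24 cells per pool in place of 32, CD127 thresholds of 1000 and 3000, each pool alone, all cells, thinned cells, spike-in scaling, a total without 3 abundant genes, the mean over cells, leaving out the cell with most UMIs, and minimums of 10 and 50 UMIs.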

Additional observations from a re-analysis of the deposited data

How the results depend on the processing

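Of 233 alternative values over 20 results, 211 stayed inside the 95% interval of the value reported, 21 left it and 1 turned its sign while the reported value was past 2-fold. Counted by sign alone, 202 of the 233 had that of the value reported, and the others had the opposite sign. The CD135 ratio of Notch1 ran from 1.99 to 2.88 over its 11 alternatives. Notch1 by cKit was -1.72 with classes of 48 cells per pool and -1.78 with thinned cells. Within the lower, middle and upper CD135 class it was 1.66, -1.50 and -1.32, the last a bound from 2 upper-cKit cells with no UMI. Notch1 by CD150 was -1.23 in pool 1 and 0.20 within the upper CD135 class. Notch1 by Sca-1 was -1.11 in pool 1, 0.28 in pool 2, and 1.19, -0.99 and -1.01 within the lower, middle and upper CD135 class. Notch1 by CD127 was 1.15 at a threshold of 1000 and 1.07 within the upper CD135 class. Notch2 was 1.04 by Sca-1 within the middle CD135 class, and 1.77 and 0.62 by cKit within the lower and upper. Rbpj was 0.48 by CD150 and 0.49 by cKit within the middle CD135 class, -1.34 and 0.62 by Sca-1 within the lower and upper, and -1.69 by CD127 within the upper. Classes within a CD135 class hold fewer cells, and the cause of other shifts was not tested. Thinning moved the ratio of Dtx4 by CD135 from 0.41 to -0.73. With minimums of 50 and 10 UMIs the share of genes past 2-fold was 6.07% and 14.3% by CD135, 3.46% and 11.3% by CD150, 3.59% and 11.7% by Sca-1, and 4.16% and 11.8% by cKit. The pathway list's median by CD135 was 0.14 with 50 UMIs. No paired analysis was possible because all cells belong to 1 group and no test was made. Depth limits Dtx4 and Hes1 most: with 38 and 10 UMIs in all, differences within their intervals were not detectable at this depth, and Hes1 was left out of these alternatives.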

Other observations

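Signals outside the sorted stem and lymphoid markers also separated Notch1. How far their classes share cells with those of CD135 was not examined, so they are not separate from the CD135 difference. The share of all genes past 2-fold was not computed for CD16/32, CD11b or scatter, so none stands beside these ratios. By CD16/32, the Fc gamma receptors of myeloid progenitors, Notch1 stood at 126.04 CPM in the lower and 34.3 CPM in the upper class, a log2 ratio of -1.88 (-2.38 to -1.40). By CD11b, an integrin of myeloid cells, it was 111 and 37.8 CPM, a log2 ratio of -1.55 (-2.05 to -1.07), with -0.92 in pool 1 and -1.96 in pool 2. Notch2 had -0.03 (-0.59 to 0.54) and 0.02 (-0.52 to 0.56) in these comparisons, the first with 0.58 in pool 1 and -0.40 in pool 2, and Rbpj -0.12 (-0.58 to 0.35) and -0.04 (-0.49 to 0.42). Dtx4 had 19 UMIs in the upper and 6 in the lower CD11b class (1.39, 0.01 to 3.003), with 2.40 in pool 1 (14 against 2 UMIs) and 0.20 in pool 2 (5 against 4).

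Both receptors were at lower CPM in cells with more side scatter, a measure of granularity: Notch1 by -0.80 (-1.25 to -0.36) and Notch2 by -0.63 (-1.18 to -0.09), the latter with -1.19 in pool 1 and -0.30 in pool 2. By forward scatter, a measure of size, Notch2 had -0.64 (-1.16 to -0.11) and Notch1 0.13 (-0.31 to 0.58), with -0.55 in pool 1 and 0.63 (0.06 to 1.24) in pool 2, so its sign differed between pools. Cells in the upper forward scatter class were deeper, with a median of 22426.5 gene UMIs against 15329.5. The pools differed too: Notch1 had 55.3 CPM in pool 1 and 87.01 in pool 2 (log2 -0.65, -1.02 to -0.29), Notch2 38.8 and 59.9 (-0.63, -1.07 to -0.19), and Rbpj 63.1 and 72.9 (-0.21, -0.58 to 0.16).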
